A study of Mus musculus with 6 samples.

Results

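The genes described here are 40 interferon-stimulated genes of the mouse, taken by symbol from the 24346 genes listed in each table of the series. All 40 symbols were found. They fall into 27 targets of type I interferon (the IFIT genes, RNA sensors, oligoadenylate synthetases, the ISG15 pathway, Mx genes and others) and 13 interferon-inducible GTPases, of which 8 are guanylate-binding proteins (GBP) and 5 are immunity-related GTPases (IRG). Expression was measured by RNA sequencing in splenic dendritic cells enriched for the surface integrin CD11c on an autoMACS magnetic sorter. The IL-33 group had 3 libraries from cells exposed to this alarmin cytokine, a relative of IL-1, and the PBS group had 3 libraries from cells given the buffer alone. No strain, age, allele, dose or time is given, nor whether the treatment took place in the mouse or in culture. Whether the replicates of a group are different animals or cultures is not stated, so p-values reflect library-to-library spread that could be technical.

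Type I interferons signal through the receptor chains IFNAR1 and IFNAR2 to a complex that contains STAT2 and IRF9 and binds the interferon-stimulated response element (ISRE) of antiviral genes. Interferon gamma signals through IFNGR1 and IFNGR2 to genes that carry a gamma-activated site (GAS), and it is the classical inducer of the GBP and IRG families, although many of these genes respond to both interferons. In the spleen, plasmacytoid dendritic cells are a major source of type I interferon, and natural killer (NK) and T cells are the main sources of interferon gamma. GBP and IRG proteins assemble on the membranes around intracellular bacteria and parasites.

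The promoters of some members that changed, and of their neighbours or relatives, are shown. The ISRE and the GAS are the elements through which such genes are known to respond. Rsad2, Ddx58 and Oas3 also changed and had a promoter in the source, but theirs are not printed. The sequences are the 120 bases before the annotated start in the RefSeq promoter table of GRCm38.p6, read in the direction of the gene. Capitals mark matches on either strand of the ISRE core (GAAA, any 2 bases, GAAA) and of the GAS core (TTC, any 3 bases, GAA), and matches of 1 motif that overlap run together. The first 4 belong to genes that rose with IL-33.
Isg15 (chr4:156200819-156200938, minus strand): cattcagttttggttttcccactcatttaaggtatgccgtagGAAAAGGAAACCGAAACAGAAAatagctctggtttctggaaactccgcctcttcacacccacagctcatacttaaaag
Oas1a (chr5:120907526-120907645, minus strand): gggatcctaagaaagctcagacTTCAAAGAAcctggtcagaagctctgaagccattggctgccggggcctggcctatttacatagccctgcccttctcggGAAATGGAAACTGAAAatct
Gbp2 (chr3:142620543-142620662, plus strand): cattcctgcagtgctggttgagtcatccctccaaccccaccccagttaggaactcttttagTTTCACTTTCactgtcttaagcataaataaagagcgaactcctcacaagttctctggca
Gbp3 (chr3:142559924-142560043, plus strand): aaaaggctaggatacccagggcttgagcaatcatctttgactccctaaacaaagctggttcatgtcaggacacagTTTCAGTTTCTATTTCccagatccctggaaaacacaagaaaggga
Gbp5 and Gbp7 lie in 1 cluster with Gbp2 and Gbp3 and did not pass the test.
Gbp5 (chr3:142496814-142496933, plus strand): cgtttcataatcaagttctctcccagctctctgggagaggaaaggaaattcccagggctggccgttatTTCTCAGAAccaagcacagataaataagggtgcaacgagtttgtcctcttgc
Gbp7 (chr3:142530216-142530335, plus strand): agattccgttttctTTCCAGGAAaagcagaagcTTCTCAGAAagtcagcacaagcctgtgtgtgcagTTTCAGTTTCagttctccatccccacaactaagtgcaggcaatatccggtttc
Irgm2 and Tgtp1 are IRG genes that fell with IL-33, and Igtp is an IRG gene that did not pass the test.
Irgm2 (chr11:58214857-58214976, plus strand): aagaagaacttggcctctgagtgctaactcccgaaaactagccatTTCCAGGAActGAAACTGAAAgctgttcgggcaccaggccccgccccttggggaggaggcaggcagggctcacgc
Tgtp1 (chr11:48992247-48992366, minus strand): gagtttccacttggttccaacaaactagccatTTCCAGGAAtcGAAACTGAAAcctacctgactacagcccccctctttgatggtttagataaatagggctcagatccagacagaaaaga
Igtp (chr11:58199436-58199555, plus strand): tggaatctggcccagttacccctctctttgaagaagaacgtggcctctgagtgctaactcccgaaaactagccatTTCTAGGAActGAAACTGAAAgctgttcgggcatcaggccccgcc

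In the IRG promoters of Irgm2, Tgtp1 and Igtp a GAS core was followed by an ISRE core of the same 10 letters, GAAACTGAAA, with 2 bases between them. The letters around these motifs were also nearly the same in Irgm2 and Igtp, so these 2 are not independent cases. Irgm1, the other IRG gene with a matched window, held 2 overlapping ISRE cores and no GAS core. Isg15 held 3 overlapping ISRE cores, of which the first began 78 bases before the start, and Oas1a and Gbp3 held 2 overlapping ones each. Gbp2 held 1 ISRE core, beginning 59 bases before the start, and no GAS core. Gbp7 held 2 GAS cores and 1 ISRE core, and Gbp5 held 1 further ISRE core 165 bases and 1 further GAS core 245 bases before the start, outside the printed stretch.

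RefSeq windows, which run from 250 bases before to 50 bases after a start, were matched for 26 of the 40 members. Dhx58, Oas2, Zbp1, Usp18, Mx1, Mx2, Ifi27l2a, Rtp4, Parp14, Gbp4, Gbp6, Gbp8, Gbp9 and Iigp1 were not matched. The ISRE core was found in 10 of 18 type I targets and in 8 of 8 GTPases, against 3.99% of 27025 genes in the table. The GAS core was found in 3 of 18 type I targets and 5 of 8 GTPases, against 9.55% of all genes. Both motifs stood in 1 of 18 type I targets (Oas1a) and in 5 of 8 GTPases, against 0.540% of all genes. By outcome, the ISRE core was present in 5 of 5 matched members that rose, 4 of 4 that fell and 9 of 17 that did not pass the test, and the GAS core in 1, 2 and 5 of them. None of the members' matches of the 2 motifs overlapped. In Ddx58, which fell, the only ISRE core began at base 3 after the start. A match describes letters in the window and is not evidence of binding. Members with several annotated starts, such as Gbp3, were counted once, with a match in any window.

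**Figure D1:**
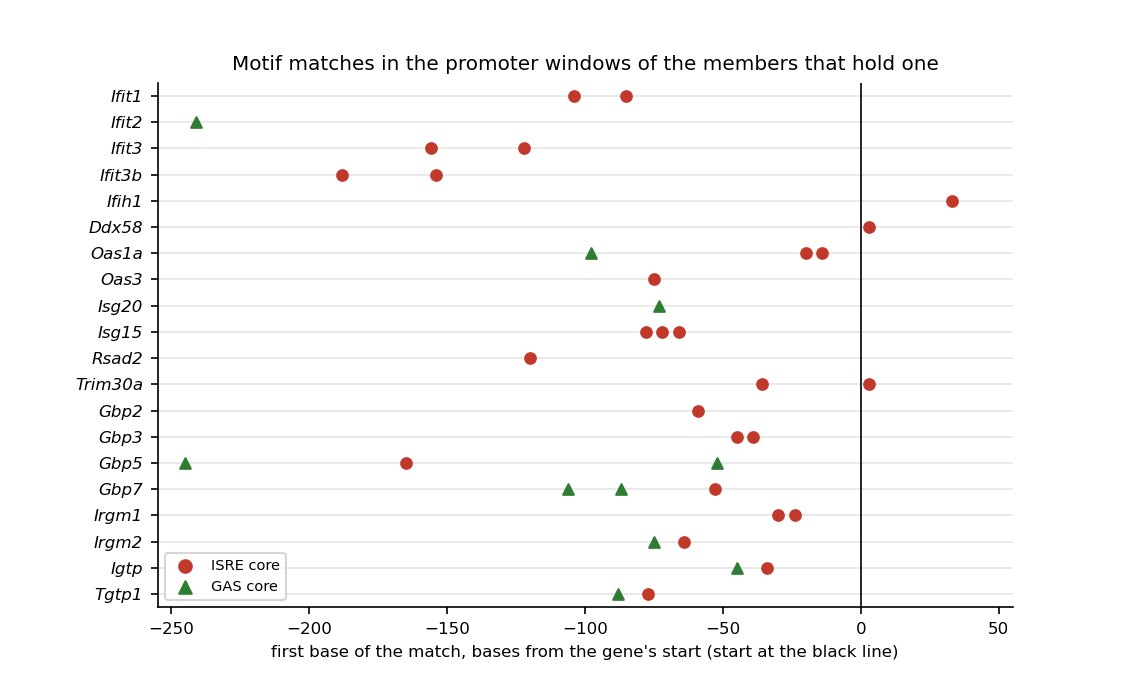
Positions of ISRE core (circles) and GAS core (triangles) matches in the RefSeq promoter windows of the 20 members that hold at least 1, as bases from the annotated start on the x axis. The 8 GTPases are the lowest rows; in Irgm2, Igtp and Tgtp1 the triangle stands directly left of the circle.

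With IL-33 the members moved in both directions, and most did not pass the test. Isg15, Ifi27l2a, Oas1a, Gbp2 and Gbp3 were about 2-fold to 3-fold higher (ratios of mean FPKM 1.96 to 2.92), while the RNA sensor Ddx58, Parp14, Oas3, Gbp9 and the IRG genes Irgm2 and Tgtp1 were lower, by ratios of 1.23 to 2.10. Of the 40 members, which all passed the expression filter, 8 rose, 6 fell and 26 did not pass, at an adjusted p of 0.05 in limma over 11518 genes. Over all tested genes 28.0% rose and 25.5% fell, 53.6% in either direction, against 14 of 40 members. The median change of the members on the log2(FPKM + 1) scale was -0.0049, with 20 positive and 20 negative, against 0.01 over all genes.

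Among the 27 type I targets 6 rose and 3 fell, with a median change of 0.02. Among the 13 GTPases 2 rose and 3 fell, with a median of -0.13. The 3 IL-33 libraries lay entirely above the PBS libraries in 7 type I targets and 2 GTPases, and entirely below in 2 type I targets and 3 GTPases. Over all tested genes such separation was seen in 63.6%, namely 32.7% above and 30.9% below. A change of at least 1 on the log2 scale was reached by 4 members, namely Isg15, Ifi27l2a, Gbp2 and Gbp3.

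The sum of FPKM differed between the groups, at 778391 to 841884 in the IL-33 libraries against 614522 to 641412 in the PBS libraries, so the split between rises and falls depends on the scaling. With libraries rescaled to equal totals, the median change of all genes moved to -0.29, and 11.1% of genes rose, 50.7% fell and 61.8% moved either way. On that scale 3 type I targets (Isg15, Ifi27l2a and Oas1a) and 2 GTPases (Gbp2 and Gbp3) rose, while 12 type I targets and 7 GTPases fell. Dhx58, Rtp4 and Rsad2 then had changes of 0.07, 0.19 and 0.03 and did not pass, although they stayed 0.36, 0.48 and 0.32 above the median of all genes. With quantile scaling 9 members rose (22.1% of all genes) and 5 fell (25.0%; 47.1% either way), and with cyclic loess scaling 9 rose (23.7%) and 4 fell (23.0%; 46.7% either way). The calls of Isg15, Ifi27l2a, Oas1a, Gbp2 and Gbp3 held under all 3 of these scalings. So did the falls of Ddx58, Parp14, Gbp9 and Irgm2, but not those of Oas3 and Tgtp1.

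**Figure D2:**
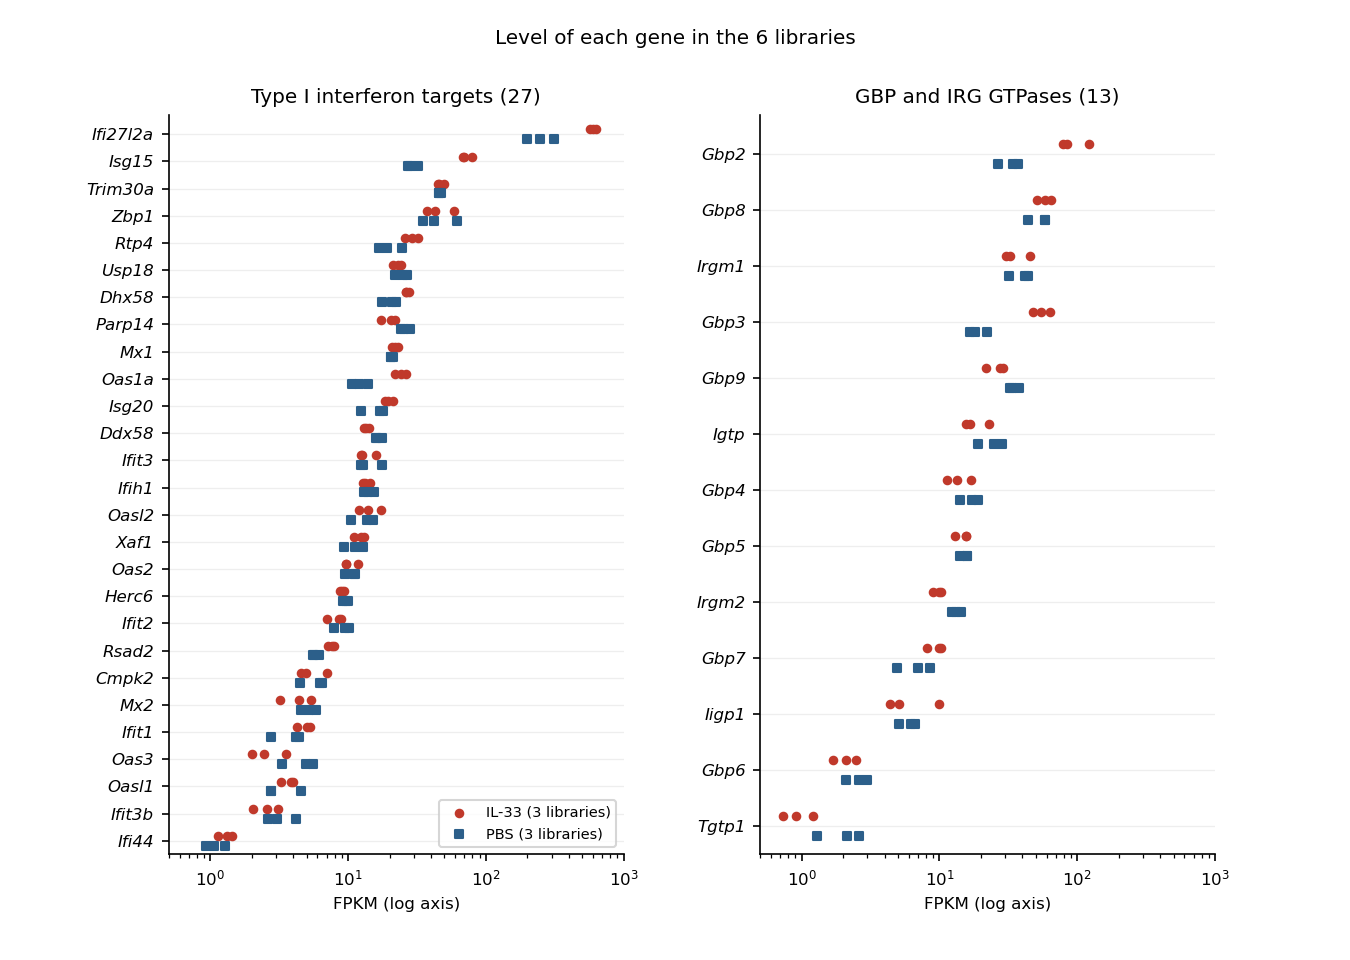
FPKM of each member in the 3 IL-33 libraries (circles) and the 3 PBS libraries (squares) on a log axis, with type I targets on the left and GTPases on the right, ordered by mean level. Ifi27l2a is the member of highest level, at 569 to 635 FPKM with IL-33 and 200 to 310 FPKM with PBS, and for most genes the groups overlap.

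Among the genes of the ISG15 pathway, Isg15, which encodes a ubiquitin-like protein that is conjugated to other proteins, was at 79.9, 68.9 and 68.6 FPKM in IL-33 libraries, against 28.1, 27.4 and 32.1 FPKM in PBS libraries. Each IL-33 library held more than 2 times the level of the highest PBS library. The log2 change was 1.28 (SE 0.09, adjusted p = 0.000201, limma), and no alternative or left-out library ended the call. Usp18, which removes ISG15 from its targets and damps signalling at IFNAR2, averaged 22.7 ± 1.52 FPKM with IL-33 and 24.5 ± 2.42 FPKM with PBS (SD, n = 3 each). Herc6, the ligase for ISG15 in the mouse, averaged 9.0 ± 0.28 FPKM with IL-33 and 9.54 ± 0.40 FPKM with PBS. Neither passed the test.

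The member of highest level was Ifi27l2a, a small hydrophobic interferon-induced protein, at 635, 569 and 601 FPKM in IL-33 libraries, against 246, 200 and 310 FPKM in PBS libraries. The groups did not overlap, and the log2 change was 1.27 (SE 0.15, adjusted p = 0.000829, limma). Rtp4, a chaperone-like protein that responds to interferon, had 32.2, 25.9 and 29.1 FPKM in IL-33 libraries, against 19, 16.7 and 24.8 FPKM in PBS libraries. Its lowest IL-33 library lay just above its highest PBS library, and the log2 change was 0.52 (SE 0.15, adjusted p = 0.0199). That call was lost without IL-33 replicate 1 (0.44), PBS replicate 1 (0.49) or PBS replicate 2 (0.40), with adjusted p of 0.0558 to 0.0697. Parp14, a mono-ADP-ribosyltransferase, had 17.4, 21.8 and 20.4 FPKM in IL-33 libraries, against 28.1, 24.2 and 25.5 FPKM in PBS libraries. The groups were separated and it fell, with a log2 change of -0.37 (SE 0.10, adjusted p = 0.0166), but not past the threshold without PBS replicate 1 (-0.31, adjusted p = 0.0506).

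Trim30a, a ubiquitin ligase of the tripartite motif family, was the third most abundant type I target and hardly differed, at 45.9, 45.3 and 49.5 FPKM in IL-33 libraries against 47.7, 45.5 and 45.6 FPKM in PBS libraries. Xaf1, a pro-apoptotic zinc finger protein, averaged 12.1 ± 1.02 FPKM with IL-33 and 11.2 ± 1.70 FPKM with PBS. Ifi44 was the member of lowest mean level, at 1.30 ± 0.15 FPKM with IL-33 and 1.09 ± 0.17 FPKM with PBS. The groups of these 3 genes overlapped and none passed.

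The oligoadenylate synthetases make the second messenger that activates RNase L upon sensing double-stranded RNA. Of the 5 Oas and Oasl members 1 rose, 1 fell and 3 did not pass (all tested genes: 28.0% rose, 25.5% fell). Oas1a was at 26.2, 24.1 and 21.7 FPKM in IL-33 libraries, against 10.7, 12.1 and 14.1 FPKM in PBS libraries. The groups did not overlap, and the log2 change was 0.92 (SE 0.11, adjusted p = 0.000982, limma). Reads may be shared between Oas1a and its near-identical neighbour Oas1g, which is not a member and rose by 0.70 (SE 0.14, adjusted p = 0.00500). Oas3, by contrast, had 2.44, 3.56 and 2.01 FPKM in IL-33 libraries, against 4.98, 3.32 and 5.55 FPKM in PBS libraries. Its highest IL-33 library lay above its lowest PBS library, and the log2 change was -0.61 (SE 0.20, adjusted p = 0.0360). That call was lost without IL-33 replicate 1 (-0.58), IL-33 replicate 3 (-0.48), PBS replicate 1 (-0.56) or PBS replicate 3 (-0.49), with adjusted p between 0.0965 and 0.104, and also with quantile (-0.53) or cyclic loess scaling (-0.48).

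Oas2 averaged 10.4 ± 1.23 FPKM with IL-33 and 10.6 ± 0.95 FPKM with PBS. Oasl1, which in the mouse restrains translation of Irf7, averaged 3.71 ± 0.39 FPKM with IL-33 and 3.35 ± 1.04 FPKM with PBS. Oasl2 averaged 14.4 ± 2.70 FPKM with IL-33 and 13.1 ± 2.30 FPKM with PBS, and none of the 3 passed. Zbp1, a sensor of Z-form nucleic acid that can start necroptosis, spread as widely within groups as between them, at 37.6 to 58.7 FPKM with IL-33 and 35.1 to 61.4 FPKM with PBS. Isg20, an antiviral exonuclease, was separated between the groups, at 21.2, 18.5 and 19.5 FPKM with IL-33 against 17.9, 12.4 and 17.0 FPKM with PBS. Its log2 change of 0.32 (SE 0.13, adjusted p = 0.0793) did not pass, although it did without PBS replicate 1 (0.42, adjusted p = 0.0470).

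Of the 3 cytosolic RNA sensors 1 rose, 1 fell and 1 did not pass (all tested genes: 28.0% rose, 25.5% fell). Dhx58, which encodes LGP2, a regulator of the other two, was at 27.8, 26.5 and 26.4 FPKM in IL-33 libraries, against 20.9, 17.7 and 22.4 FPKM in PBS libraries. The groups did not overlap, and the log2 change was 0.39 (SE 0.09, adjusted p = 0.00993, limma). Ddx58, which encodes the sensor RIG-I, was at 14.1, 13 and 13.5 FPKM in IL-33 libraries, against 17.8, 15.9 and 16.3 FPKM in PBS libraries. It fell with separated groups, at a log2 change of -0.28 (SE 0.07, adjusted p = 0.0148), and did not pass without IL-33 replicate 2 (-0.25, adjusted p = 0.0567). Ifih1, which encodes the sensor MDA5, averaged 13.5 ± 0.72 FPKM with IL-33 and 14.1 ± 1.13 FPKM with PBS and did not pass.

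Of the Mx and viperin genes, only Rsad2 passed. Rsad2 encodes viperin, which makes a chain-terminating nucleotide, and it was at 7.96, 7.62 and 7.11 FPKM in IL-33 libraries, against 5.68, 5.61 and 6.16 FPKM in PBS libraries. The groups did not overlap, and the log2 change was 0.33 (SE 0.08, adjusted p = 0.0107, limma). Its neighbour on chromosome 12, Cmpk2, a mitochondrial nucleotide kinase, averaged 5.51 ± 1.30 FPKM with IL-33 and 5.74 ± 1.10 FPKM with PBS. Mx1, an antiviral GTPase of the dynamin family, stayed within 20.9 to 23.1 FPKM with IL-33 and 20.6 to 21.2 FPKM with PBS. Mx2, annotated as a polymorphic pseudogene in GENCODE M21, averaged 4.32 ± 1.09 FPKM with IL-33 and 5.21 ± 0.62 FPKM with PBS.

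None of the 4 IFIT genes, whose products bind foreign RNA and block its translation, passed the test. Ifit1 averaged 4.86 ± 0.51 FPKM with IL-33 and 3.79 ± 0.90 FPKM with PBS, with a log2 change of 0.31 (SE 0.15, adjusted p = 0.128, limma). Ifit2 averaged 8.16 ± 1.01 FPKM with IL-33 and 9.18 ± 1.18 FPKM with PBS. The near-identical pair Ifit3 and Ifit3b, between which reads may be divided, averaged 13.7 ± 2.01 and 2.57 ± 0.53 FPKM with IL-33 and 14.3 ± 2.98 and 3.29 ± 0.84 FPKM with PBS. The median change of the 4 genes was -0.10.

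**Figure D3:**
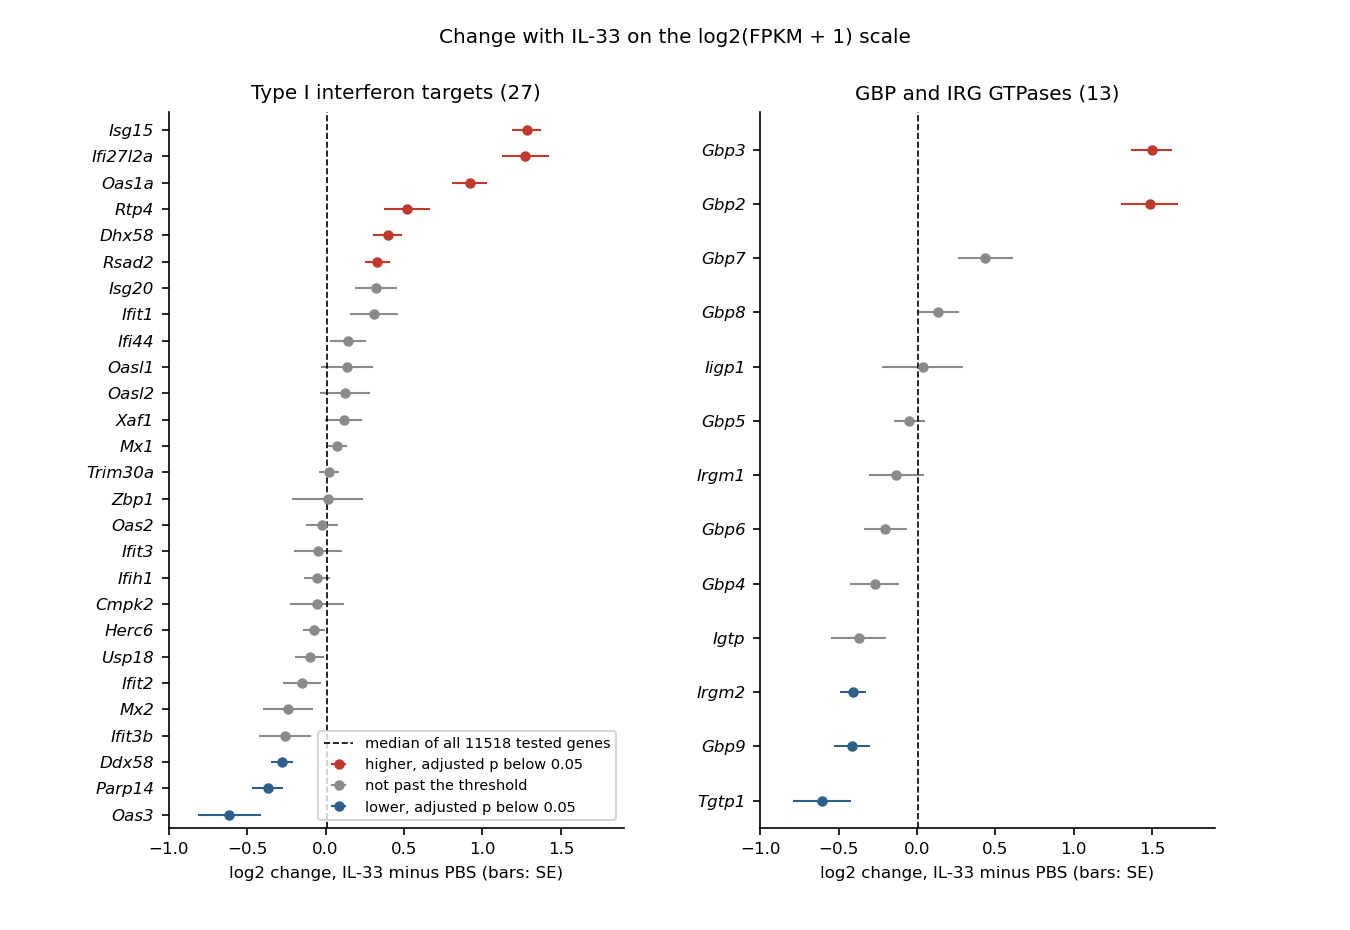
Change of each member (IL-33 minus PBS, log2(FPKM + 1) scale; points, bars are SE), with type I targets on the left and GTPases on the right; colour marks the limma call and the dashed line the median of all tested genes (0.01). Isg15, Ifi27l2a, Oas1a, Gbp3 and Gbp2 stand apart to the right, and the members that fell do so by 0.28 to 0.61.

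Both GBP members that rose, Gbp2 and Gbp3, lie in the same gene cluster. The GBP genes of the mouse lie in a cluster on chromosome 3 and another on chromosome 5 (positions are GENCODE M21 on GRCm38, the assembly also called mm10). On chromosome 3, 2 of 4 members rose and none fell, with a median change of 0.96. On chromosome 5, 1 of 4 fell and none rose, with a median of -0.24. Over all tested genes 28.0% rose and 25.5% fell. The difference between the clusters was not tested.

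Gbp2, at chr3:142620602-142638008 on the plus strand, had 78.7, 121 and 83.8 FPKM in IL-33 libraries, against 34.5, 26.8 and 37.2 FPKM in PBS libraries. It was the most abundant GTPase with IL-33, the groups did not overlap, and the log2 change was 1.48 (SE 0.18, adjusted p = 0.000982, limma). Gbp3, at chr3:142560026-142573209 on the plus strand, had 54.9, 63.6 and 48.1 FPKM in IL-33 libraries, against 18.2, 16.8 and 22.0 FPKM in PBS libraries. This was the largest change of any member, at 1.5 (SE 0.13, adjusted p = 0.000323), again without overlap. No left-out library or other scaling ended either call.

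Between them lies Gbp2b, at chr3:142594847-142619179, which is not a member and belongs to the list of other interferon gamma targets. Gbp2b had 9.90, 13.4 and 9.38 FPKM in IL-33 libraries, against 0.47, 0.34 and 0.77 FPKM in PBS libraries. The log2 change was 2.96 (SE 0.16, adjusted p = 6.69e-05), so 3 neighbouring genes rose. On the other side of Gbp3, Gbp7 had 8.07, 9.90 and 10.3 FPKM in IL-33 libraries, against 6.94, 4.93 and 8.57 FPKM in PBS libraries. The groups of Gbp7 overlapped at their edges, and the log2 change of 0.44 (SE 0.18, adjusted p = 0.0718) did not pass, although it did without PBS replicate 3 (0.60, adjusted p = 0.0196) and with quantile (0.52) or cyclic loess scaling (0.56). Gbp5, an activator of inflammasomes at the outer end of the cluster, averaged 14.7 ± 1.56 FPKM with IL-33 and 15.2 ± 1.07 FPKM with PBS. Its log2 change was -0.05 (SE 0.10, adjusted p = 0.698). GBP coding sequences are similar, and reads shared among them could have been divided between these genes.

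**Figure D4:**
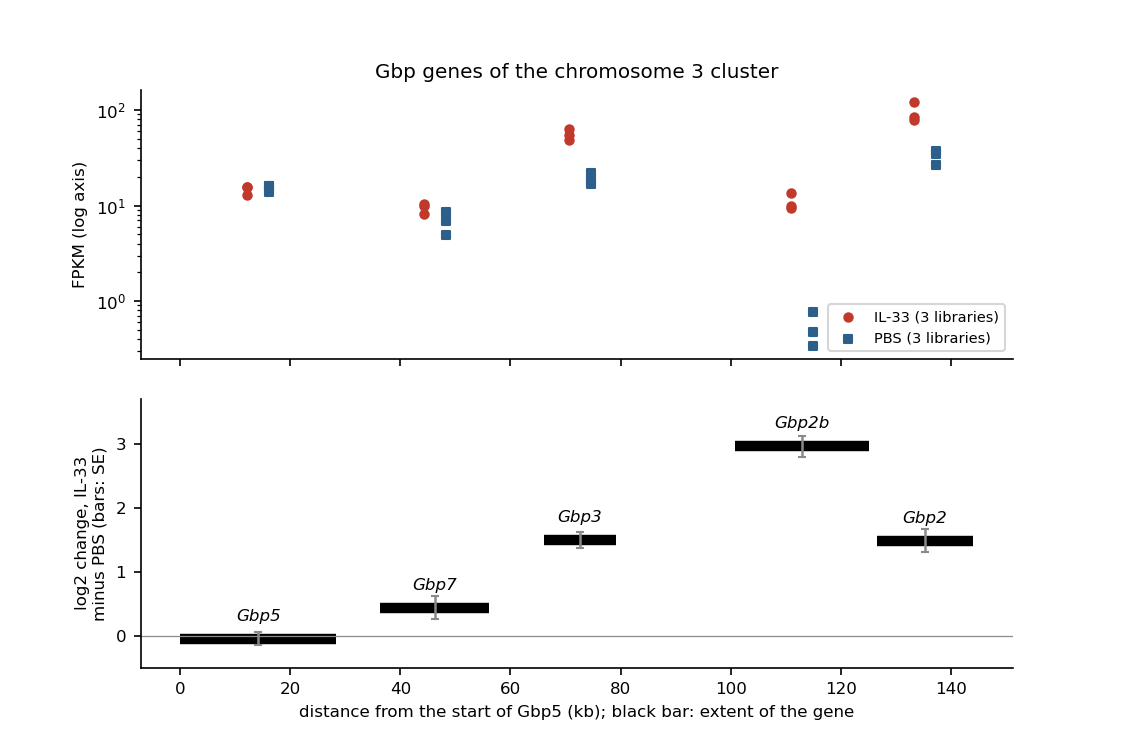
GBP genes of the chromosome 3 cluster along the distance from the start of Gbp5 in kb: FPKM per library (upper, log axis; circles IL-33, squares PBS) and change with SE (lower; bars span each gene). From left to right the changes are -0.05, 0.44, 1.5, 2.96 and 1.48, so the 3 genes that rose are adjacent.

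On chromosome 5, Gbp8 was the second most abundant GTPase, at 58.8, 51.5 and 64.7 FPKM in IL-33 libraries against 43.8, 58.0 and 58.0 FPKM in PBS libraries. The groups overlapped and the change of 0.13 (SE 0.13) did not pass. Gbp9 had 21.6, 27.5 and 28.8 FPKM in IL-33 libraries, against 37.5, 33.9 and 32.6 FPKM in PBS libraries. It fell with separated groups, at a log2 change of -0.41 (SE 0.11, adjusted p = 0.0196, limma), but not without PBS replicate 1 (-0.36, adjusted p = 0.0590). Gbp4 averaged 13.9 ± 2.87 FPKM with IL-33 and 16.8 ± 2.47 FPKM with PBS, and Gbp6 averaged 2.10 ± 0.40 FPKM with IL-33 and 2.56 ± 0.44 FPKM with PBS, neither past the threshold. Gbp4, Gbp8 and Gbp9 overlap on the same strand in the annotation, so reads may not have been assigned to the right one of them.

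Of the 5 IRG genes none rose and 2 fell, with a median change of -0.37, against 28.0% and 25.5% of all tested genes. The regulatory members Irgm1, Irgm2 and Igtp control on which membranes the effector members Iigp1 and Tgtp1 act. Irgm2 had 9.05, 10.3 and 9.89 FPKM in IL-33 libraries, against 13.2, 12.3 and 14.3 FPKM in PBS libraries. It fell with separated groups, at a log2 change of -0.41 (SE 0.08, adjusted p = 0.00595, limma), and the call held without any 1 library. Igtp, which overlaps Irgm2 in the annotation, had 16.7, 22.8 and 15.6 FPKM in IL-33 libraries, against 24.7, 19 and 28.6 FPKM in PBS libraries. Its groups overlapped, and the change of -0.37 (SE 0.18, adjusted p = 0.113) did not pass. It did without IL-33 replicate 2 or PBS replicate 2 (-0.53 each, limma, adjusted p of 0.0383 and 0.0422) and with equal totals (-0.70, adjusted p = 0.0131). Irgm1, the IRG gene of highest level, had 32.4, 45.4 and 30.3 FPKM in IL-33 libraries, against 42.1, 31.9 and 43.8 FPKM in PBS libraries, with overlap and no call.

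Tgtp1 had 0.73, 1.22 and 0.91 FPKM in IL-33 libraries, against 2.59, 1.30 and 2.13 FPKM in PBS libraries. It fell with separated groups, at a log2 change of -0.60 (SE 0.18, adjusted p = 0.0270, limma). The call was lost without IL-33 replicate 1 (-0.52), IL-33 replicate 3 (-0.59), PBS replicate 1 (-0.46) or PBS replicate 3 (-0.56), with adjusted p between 0.0651 and 0.0883, and with cyclic loess scaling (-0.47, adjusted p = 0.0644). Its near-identical partner Tgtp2, which is not a member and may share its reads, had a change of -0.62 (SE 0.19, adjusted p = 0.0294). Iigp1 averaged 6.48 ± 3.07 FPKM with IL-33 and 5.96 ± 0.79 FPKM with PBS, where IL-33 replicate 2 alone stood above the other libraries.

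The GTPases varied together within groups. IL-33 replicate 2 was the highest of its group in 10 of 13 GTPases, including 5 of 5 IRG genes, but in 8 of 27 type I targets, against 29.9% of all tested genes. PBS replicate 2 was the lowest of its group in 11 of 13 GTPases and 21 of 27 type I targets, against 27.9% of all genes. PBS replicate 3 was the highest in 9 of 13 GTPases and 20 of 27 type I targets, against 34.9% of all genes. The mean deviation of the GTPases from their group mean was 0.21 (log2) in IL-33 replicate 2 and -0.17 in IL-33 replicate 1, and that of the type I targets was 0.00 and 0.04. In the PBS group it was 0.13 in replicate 3 and -0.19 in replicate 2 for the GTPases, and 0.12 and -0.15 for the type I targets.

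**Figure D5:**
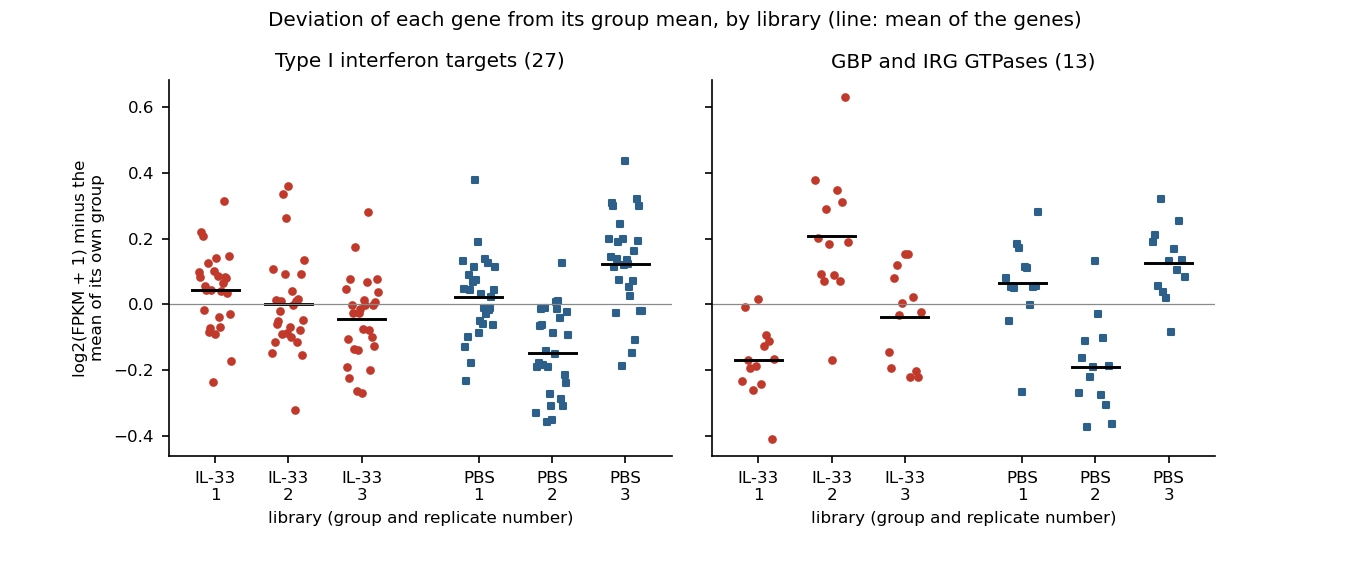
Deviation of each member from the mean of its own group on the log2(FPKM + 1) scale, by library (circles IL-33, squares PBS; the black line is the mean over the genes). Most GTPases lie above 0 in IL-33 replicate 2 (mean 0.21), while the type I targets there centre on 0.00, and both classes lie low in PBS replicate 2.

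Ifng, which encodes interferon gamma, had 8.52, 14.4 and 9.23 FPKM in IL-33 libraries, against 17.1, 16.5 and 52.3 FPKM in PBS libraries. IL-33 replicate 2 was the highest of its group, as in 10 of 13 GTPases and 8 of 27 type I targets. PBS replicate 2 was the lowest, just below PBS replicate 1. It was also the lowest in 11 of 13 GTPases and 21 of 27 type I targets. PBS replicate 3 stood far above the rest. The groups were separated, but the change of -1.17 (SE 0.42, adjusted p = 0.0502, limma) did not pass. It passed without PBS replicate 1 (-1.42), PBS replicate 2 (-1.44) or PBS replicate 3 (-0.64), with adjusted p of 0.0361 to 0.0433, and with equal totals (-1.48, adjusted p = 0.0162). Of the 12 markers of NK cells, 11 were lower and none higher at the threshold, against 25.5% and 28.0% of all tested genes. Their summed level was 261, 409 and 265 FPKM in IL-33 libraries, against 681, 692 and 942 FPKM in PBS libraries. The order of the PBS libraries differed between markers, with Nkg7 at 95.3, 71.7 and 200 FPKM and Ncr1 at 34.3, 35.0 and 23.8 FPKM. T cell markers summed to 92.6, 102 and 77.5 FPKM in IL-33 libraries, against 300, 206 and 460 FPKM in PBS libraries. The part of NK and T cells in the levels of Ifng and the GTPases was not tested. In such sorted bulk samples, fewer cells of a type and less RNA per cell cannot be told apart.

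Markers of other cell types moved too. All 11 tested T cell markers fell, with sums of 77.5 to 102 FPKM with IL-33 and 206 to 460 FPKM with PBS. Of 12 plasmacytoid dendritic cell markers 9 fell and 1 rose, with sums of 317 to 409 FPKM with IL-33 and 337 to 503 FPKM with PBS. Ly6d, which did not pass, was the largest part of these sums, at means of 174 FPKM with IL-33 and 158 FPKM with PBS. Siglech averaged 12.4 FPKM with IL-33 and 51.1 FPKM with PBS, and Runx2 5.51 and 19.1 FPKM. The marker that rose was Blnk, at means of 39.8 FPKM with IL-33 and 23.9 FPKM with PBS. Of 10 eosinophil markers 8 rose and none fell, with sums of 882 to 1263 FPKM with IL-33 and 220 to 312 FPKM with PBS. Epx, Ear1 and Ear6 were listed at 0 in at least 1 PBS library. Ear2 was the largest part of these sums, at means of 773 FPKM with IL-33 and 216 FPKM with PBS. Ccr3 (means 51.4 FPKM with IL-33 and 51.2 FPKM with PBS) and Il5ra (1.30 and 1.79 FPKM) did not pass. Of 10 tested neutrophil markers 8 rose and 1 fell, with sums of 1225 to 2469 FPKM with IL-33 and 492 to 806 FPKM with PBS. Elane was listed at 0 in a PBS library. S100a8 and S100a9 made up most of these sums, at means of 835 and 806 FPKM with IL-33 and 318 and 298 FPKM with PBS. Mmp9 fell, at means of 8.28 FPKM with IL-33 and 13.8 FPKM with PBS, and Cxcr2 did not pass. The 6 pan-dendritic markers were present in every library, with 2 higher, 2 lower and sums of 7663 to 8512 FPKM with IL-33 and 4928 to 5356 FPKM with PBS. H2-Ab1 made up most of these sums, at means of 7511 FPKM with IL-33 and 4643 FPKM with PBS. H2-Ab1 and Itgax rose (changes 0.69 and 0.23), while Zbtb46 and Flt3 fell (-0.63 and -0.61). Of 12 markers of type 2 conventional dendritic cells 4 rose and 3 fell, of 12 of monocytes and macrophages 3 rose and 2 fell, and of 10 of B cells 2 fell. Over all tested genes 28.0% rose and 25.5% fell. The part of these cell types in the changes of the members was not tested.

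Upstream of the members, transcripts of type I and lambda interferons were near or at 0 in most libraries. The type I gene Ifnb1 had 1.70, 0.36 and 1.03 FPKM in IL-33 libraries, against 0.11 FPKM in 1 PBS library and a listing at 0 in the other two. The groups did not overlap, but Ifnb1 failed the expression filter, and a two-sided exact permutation over the 6 libraries gave p = 0.1, the smallest it allows. Without the filter its change was 0.91 (limma, adjusted p = 0.0273). Most of the listed interferon alpha genes were at 0 in every library. No type I or lambda interferon gene passed the expression filter. The 5 tested genes of the ligand list were Ifng, Il12a, Il12b, Il18 and Il27, of which only Ifng encodes an interferon. Of these 5, 1 rose (Il18) and 1 fell (Il27), against 28.0% and 25.5% of all tested genes. With equal totals 1 rose and 3 fell, against 11.1% and 50.7% of all tested genes. Il18, which drives interferon gamma production, was at 183, 131 and 199 FPKM with IL-33 against 69.1, 95.6 and 106 FPKM with PBS, a change of 0.92 (SE 0.20, adjusted p = 0.00699). Il27, a cytokine made by dendritic cells, was at 2.68, 1.49 and 2.32 FPKM with IL-33 against 5.35, 3.53 and 7.10 FPKM with PBS, a change of -0.98 (SE 0.23, adjusted p = 0.0104). The groups of both genes were separated.

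Of 11 tested receptor and transducer genes 2 rose and 2 fell, with a median change of -0.15, and with equal totals none rose and 9 fell (median -0.49). Over all tested genes 28.0% rose and 25.5% fell, and with equal totals 11.1% rose and 50.7% fell (median -0.29). Tyk2, a kinase bound to IFNAR1, averaged 46.1 ± 0.56 FPKM with IL-33 and 35.6 ± 1.19 FPKM with PBS (change 0.36, adjusted p = 0.00250, limma), which under equal totals was 0.03 and did not pass. Jak1, its partner kinase, averaged 70.5 ± 3.41 FPKM with IL-33 and 96.2 ± 4.04 FPKM with PBS (change -0.44, adjusted p = 0.00190). Ifngr2 rose by 0.24 (adjusted p = 0.0151), a direction that turned to -0.10 under equal totals. Stat2 fell to 29.1 ± 2.04 FPKM with IL-33, against 36.6 ± 3.51 FPKM with PBS (change -0.32, adjusted p = 0.0210). That call was lost without IL-33 replicate 1 (-0.27), IL-33 replicate 3 (-0.32) or PBS replicate 1 (-0.25), with adjusted p of 0.0516 to 0.0699.

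Irf1, Irf7, Irf9, Ifnar1, Ifnar2 and Ifngr1 did not pass. Irf1, a transcription factor induced by interferon gamma, had 95.6, 125 and 91.5 FPKM in IL-33 libraries, against 130, 114 and 156 FPKM in PBS libraries, a change of -0.36 (SE 0.15, adjusted p = 0.0765, limma). It passed without IL-33 replicate 2 (-0.50) or PBS replicate 2 (-0.47), with adjusted p of 0.0257 and 0.0499. With the 3 other scalings Irf1 passed as well (-0.68 to -0.70). IL-33 replicate 2 was the highest of its group and PBS replicate 2 the lowest, as in most GTPases. The low level in PBS replicate 2 was also seen in most type I targets. Irf7 and Irf9 had changes of 0.08 and -0.04. The receptor genes Ifnar1, Ifnar2 and Ifngr1 had changes of -0.19, -0.13 and -0.15, which passed without PBS replicate 3 for Ifnar1 (-0.25, adjusted p = 0.0350) and without PBS replicate 1 for Ifnar2 (-0.22, adjusted p = 0.0285) and Ifngr1 (-0.24, adjusted p = 0.0224).

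Of 16 genes of nucleic acid sensing and interferon induction 5 rose and 6 fell, with a median of -0.01, against 28.0% and 25.5% of all genes. With equal totals 2 rose and 9 fell (median -0.34), against 11.1% and 50.7% of all genes. Unc93b1 and Trim25, counted among the rises, then had changes of -0.13 and -0.033. The call of Unc93b1 was also lost without any 1 of the 6 libraries, and that of Trim25 without IL-33 replicate 2 or 3 or PBS replicate 2 or 3. Ticam1, the adaptor TRIF of Toll-like receptors, averaged 23.9 ± 0.53 FPKM with IL-33 and 11.8 ± 0.48 FPKM with PBS (change 0.96, adjusted p = 0.000161, limma). Myd88, the adaptor shared by the IL-33 receptor and most Toll-like receptors, averaged 86.4 ± 4.06 FPKM with IL-33 and 57.8 ± 2.87 FPKM with PBS (change 0.57, adjusted p = 0.000886). Irf5, a transcription factor downstream of MYD88, rose by 0.45 (adjusted p = 0.00177), though with equal totals it was at 0.11 and did not pass. Tlr3, an endosomal receptor for double-stranded RNA that marks type 1 conventional dendritic cells, averaged 4.52 ± 0.67 FPKM with IL-33 and 10.2 ± 0.46 FPKM with PBS (change -1.03, adjusted p = 0.000506). Among 12 markers of that cell type, which include Tlr3, 5 rose and 6 fell. Their sums were 908 to 950 FPKM with IL-33 and 689 to 729 FPKM with PBS. Batf3 and Cd24a had the highest means with IL-33, and both rose. Batf3 averaged 236 FPKM with IL-33 and 82.4 FPKM with PBS, and Cd24a 202 and 104 FPKM. Of those that fell, Xcr1 averaged 7.65 FPKM with IL-33 and 15.2 FPKM with PBS, and Clec9a 21.2 and 32.5 FPKM. Irf8 also fell, at means of 158 FPKM with IL-33 and 209 FPKM with PBS.

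Of 13 genes listed as brakes on interferon signalling 5 rose and 4 fell (median 0.03), against 28.0% and 25.5% of all genes. With equal totals 2 rose and 7 fell (median -0.28), against 11.1% and 50.7% of all genes. Samhd1, counted among the rises, then had a change of -0.020. Cish, a suppressor of cytokine signalling, averaged 5.84 ± 0.44 FPKM with IL-33 and 1.2 ± 0.46 FPKM with PBS (change 1.66, adjusted p = 0.000411, limma). Trex1, an exonuclease that clears cytosolic DNA, averaged 97.7 ± 0.77 FPKM with IL-33 and 63.0 ± 1.55 FPKM with PBS (change 0.63, adjusted p = 0.000364). Ptpn1, a phosphatase of JAK kinases, rose by 0.47 (adjusted p = 0.00133), though not with equal totals (0.13, adjusted p = 0.0880). Ptprc, which encodes CD45, had a change of -0.40 (adjusted p = 0.00393) and so fell.

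Outside the members, 61 tested type I targets held 14 that rose and 17 that fell, with a median of -0.12, against 28.0% and 25.5% of all genes. With equal totals they held 3 that rose and 39 that fell (median -0.44), against 11.1% and 50.7% of all genes. Mlkl, the executor of necroptosis, averaged 9.42 ± 0.86 FPKM with IL-33 and 3.77 ± 0.65 FPKM with PBS (change 1.13, adjusted p = 0.000596, limma), and Trim14, a tripartite motif protein, rose by 0.43 (adjusted p = 0.00155), though not with equal totals (0.10). Samd9l, an antiviral factor that restrains translation, averaged 15.0 ± 0.23 FPKM with IL-33 and 40.0 ± 7.40 FPKM with PBS (change -1.34, adjusted p = 0.000403), and Slfn8 had a change of -0.83 (adjusted p = 0.00159). Of 39 other tested interferon gamma targets 18 rose and 7 fell, with a median of 0.25, against 28.0% and 25.5% of all genes. With equal totals 9 rose and 13 fell (median -0.082), against 11.1% and 50.7% of all genes. Beside Gbp2b, those with the smallest adjusted p were Upp1, uridine phosphorylase, at 3.99 ± 1.34 FPKM with IL-33 and 0.22 ± 0.08 FPKM with PBS (change 2.00, adjusted p = 0.000489), and the peptide-loading genes H2-DMa and H2-DMb1. H2-DMa averaged 520 ± 34.9 FPKM with IL-33 and 280 ± 5.67 FPKM with PBS (change 0.89, adjusted p = 0.000256), and H2-DMb1 averaged 461 ± 32.4 FPKM with IL-33 and 255 ± 6.70 FPKM with PBS (change 0.85, adjusted p = 0.000322). Of the listed type I targets, Rnf213 was not analysed here.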

How the data were processed

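The deposited tables hold 1 FPKM value (fragments per kilobase, corrected for library size) per gene and library, made by the authors from TruSeq stranded mRNA libraries with TopHat2 2.0.13, Bowtie2 2.2.3, SAMtools 0.1.19 and Cuffnorm 2.2.1 on mm10, per the submitters' processing notes. Annotation, library scaling and strand use in counting are not given in these sources, so overlapping, antisense and near-identical genes cannot be told apart with certainty. FPKM carry no read counts, so absolute depth is unknown; steps between values of at most 0.3 FPKM gave depths of 0.943 to 1.22 relative to PBS replicate 1. No batch is labelled.

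Values were analysed as log2(FPKM + 1), which understates the change of low genes, for the 11518 genes that reached 1 FPKM in 3 or more of the 6 libraries. Treatment was fitted without a block in limma 3.58.1 (R 4.3.3) with a mean-variance trend, two-sided, with Benjamini-Hochberg adjustment across the tested genes (threshold 0.05). The fit was tested on simulated data. A change is IL-33 minus PBS, with its SE. Levels are mean ± SD. Members, lists, markers and tests were chosen with earlier results of these data known. Named were all members and, of each pathway list, up to 4 genes with the smallest adjusted p, together with Ifng, Ifnb1 and a fixed set of receptor and transcription factor genes, of which 1 is not reported here; Oas1g and Tgtp2 were added after their values were seen, since they may share reads with members. Positions are GENCODE M21; promoter windows are RefSeq, GRCm38.p6. Motifs were searched on both strands with Python 3.11.15. Alternatives were 2 other pseudocounts, 2 other filters, 3 scalings, no trend, a replicate block and leaving out each library.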

Additional observations from a re-analysis of the deposited data

How the results depend on the processing

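All 6 type I targets and both GTPases that rose kept their direction under every alternative run, but the counts depend on the scaling. With equal totals 1280 genes rose and 5840 fell, in place of 3230 and 2939, and among the type I targets 3 rose and 12 fell, in place of 6 and 3, while 7 GTPases fell, in place of 3. That scaling lowers every IL-33 value relative to PBS by construction. Among the type I targets, leaving out 1 library at a time gave 5 to 6 that rose and 1 to 3 that fell. Among the GTPases it gave 2 to 3 that rose and 1 to 4 that fell. Over all tested genes the same fits gave 2622 to 3108 that rose and 2214 to 2768 that fell, in place of 3230 and 2939. The lowest counts of falls among the members, 1 in each class, came without PBS replicate 1. In that fit 2366 of all tested genes fell. The 2 other pseudocounts and the fit without a trend changed no member's call, without the filter Oas3 was lost, and with a minimum of 5 FPKM 33 members were tested and none of their calls changed. No member past the threshold turned its sign. Of the pathway genes past it, 8 turned with equal totals: Ifngr2 (-0.098), Unc93b1 (-0.13), Trim25 (-0.033), Samhd1 (-0.020), Ifi35 (-0.069), Psme1 (-0.064), Psme2 (-0.029) and Icam1 (-0.092). Among genes not past it, the changes with equal totals were -0.13 for Oasl1, -0.19 for Oasl2, -0.0019 for Isg20, -0.32 for Zbp1, -0.25 for Mx1, -0.044 for Ifi44, -0.20 for Xaf1, -0.31 for Trim30a, -0.20 for Gbp8, -0.25 for Iigp1 and -0.26 for Irf7. With quantile scaling they were 0.041 for Oas2, -0.16 for Zbp1, 0.0090 for Herc6, 0.042 for Cmpk2, -0.16 for Trim30a, -0.063 for Gbp8 and -0.18 for Irf7, and with cyclic loess 0.065, -0.16, 0.027, 0.082, -0.16, -0.077 and -0.18 for the same genes. Leaving out 1 library gave ranges of -0.21 to 0.045 for Cmpk2, -0.10 to 0.037 for Gbp5, -0.10 to 0.0027 for Ifih1, -0.16 to 0.11 for Ifit3, -0.28 to 0.24 for Iigp1, -0.12 to 0.011 for Irf9, -0.11 to 0.022 for Oas2, -0.014 to 0.24 for Oasl2, -0.019 to 0.043 for Trim30a and -0.17 to 0.23 for Zbp1. The cause of these turns was not tested. The groups share replicate numbers, but no pairing is labelled. Deviations of same-numbered libraries correlated at 0.07, -0.05 and 0.09 over all tested genes, and those of different-numbered libraries at -0.11 to 0.06. These values gave no sign of pairing but cannot exclude it, since each deviation is from a mean of only 3 libraries. With the replicate number as a block 7 type I targets rose and 2 fell, 2 GTPases rose and 2 fell, and over all genes 2806 rose and 2452 fell. The absolute depth is unknown, and 3 libraries per group limit the power for small changes.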
